A study of Arabidopsis thaliana with 6 samples.

Results

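The genes described here take part in the movement of membrane and cargo inside the cell, and they bear symbols made of SEC, VPS, ATG or EXO with a number. A gene entered when the array's annotation gave a probe set to it alone and its symbol had that form, with or without a leading At. This gave 28 genes of the 13356 that one-gene probe sets name, among them 10 VPS, 9 SEC, 8 ATG and 1 EXO gene. Each of the 28 had 1 such probe set, so the choice of the brightest probe set per gene left nothing out. The rule uses names and no measured value, although the families were picked with earlier results of these data known.

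RNA came from 5 mm root tips of 7-day-old Arabidopsis thaliana seedlings of the Col-0 accession, grown in shaken liquid culture at 23 °C in continuous light. One group was given the synthetic signalling peptide CLE10 and the other CLE25, each at 1000 nM for 12 h, and both groups were wild type with 3 arrays each. The comparison was meant to find genes that account for the different effects of both peptides. Arrays of untreated roots were not analysed here, so every difference is CLE25 against CLE10 and says nothing of the response to either peptide alone.

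Secretory proteins leave the endoplasmic reticulum (ER) in vesicles that fuse with the Golgi apparatus, and SNARE proteins carry out this fusion. The exocyst, a complex of SEC and EXO subunits, tethers secretory vesicles to the plasma membrane before fusion, and root tips use it for cell plates and for growing walls. The ESCRT machinery takes ubiquitin-tagged membrane proteins into the inner vesicles of multivesicular endosomes, which the vacuole then degrades. In autophagy a double membrane encloses part of the cytoplasm for delivery to the vacuole, and the ubiquitin-like protein ATG8 is attached to that membrane's lipid.

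The values are probe-set signals in linear units that the array software scaled to a common average, with a trimmed mean of 500 on each of the 6 arrays. Median signals lay between 157 and 172. Signals of different probe sets do not rank transcripts, so each gene is compared only with itself. The expansins EXPA7 and EXPA18, markers of root hairs, had signals of 1325 to 2596 and 2615 to 4049, and the endodermal receptor kinase GSO1 had 532.5 to 660.5. LHCB4.1, a light-harvesting protein of green tissue, had 40.2 to 147.5. Of the 9 marker genes named on the array, 1 (11.1%) had groups that did not overlap, against 9.18% of all probe sets tested. This was AUR1, a mitotic kinase, higher with CLE25 at a log2 difference of 0.24 ± 0.12. SWEET11, a phloem sucrose transporter, had the one unadjusted p under 0.05 among them, at -0.76 ± 0.27 (limma unadjusted p = 0.0177, limma adjusted p = 0.9995). Such a p was found for 1 of the 9 markers (11.1%) and for 4.21% of all probe sets tested. AUR2 had -0.04 ± 0.14, the meristem genes BBM and JKD -0.25 ± 0.23 and 0.03 ± 0.28, and GSO1 -0.03 ± 0.12. LHCB4.1 had -0.49 ± 0.35, with its lowest signal, 40.2, on CLE25 replicate 3. EXPA7 had 0.24 ± 0.20 and EXPA18 0.13 ± 0.15. The part of these tissues in any result was not tested. In bulk tissue, fewer cells of a type and less RNA per cell cannot be told apart.

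No difference in the signals of these genes was called between root tips given CLE25 and root tips given CLE10. With 3 arrays per group, this does not show that the signals were equal. Of the 28 genes, 24 were bright enough to be tested and 4 were dim. In limma, 0 of the 24 passed an adjusted p of 0.05, and 0% of all 13648 probe sets tested did. At an unadjusted p under 0.05 the count was 0 of 24 genes, against 4.21% of all probe sets. Fold changes are given as log2 values of CLE25 minus CLE10, with the standard error, after a pseudocount of 6.03 was added to each signal. They ran from -0.23 to 0.34 over the 24 genes, and the limma adjusted p lay between 0.9995 and 0.9999 for every one of them.

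**Figure D1:**
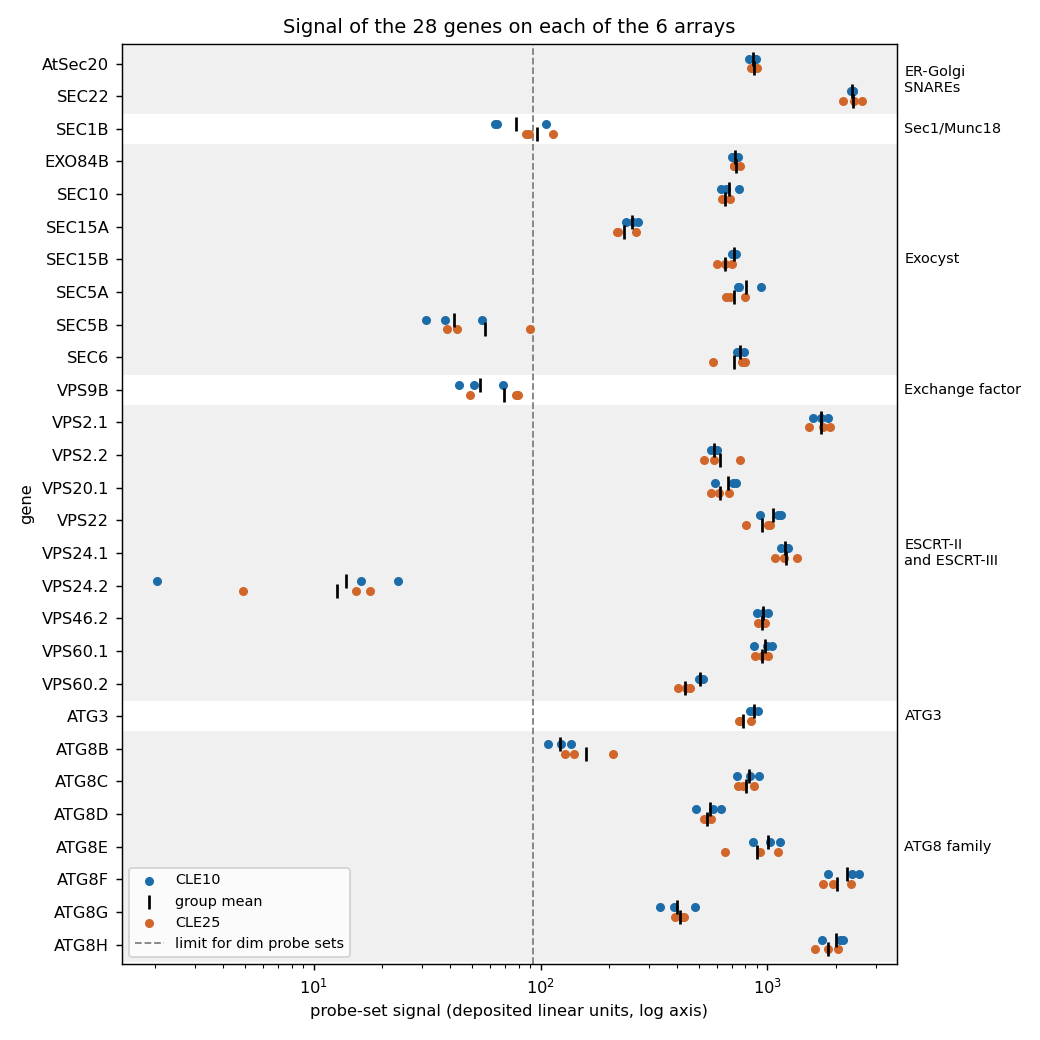
Probe-set signal (log axis) of the 28 genes, grouped by role, on the 3 CLE10 arrays (blue) and the 3 CLE25 arrays (orange), with group means as black bars and the limit for dim probe sets, a signal near 92.3, as a dashed line. Points of both colours overlap in every row but those of SEC15B and VPS60.2. VPS24.2, SEC5B and VPS9B have both group means left of the limit, and SEC1B has its CLE10 mean (77.6) left and its CLE25 mean (96.2) right of it.

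The 95% confidence intervals bound the differences more closely than the missing calls alone. They rest on the spread between arrays, which may be technical, so they need not bound a difference between separate cultures. The 95% confidence interval stayed within 2-fold in both directions for 24 of 24 genes, against 98.7% of all probe sets tested. It stayed within 1.5-fold for 23 of 24, against 81.5%, and ATG8B was the exception. The median standard error was 0.12 for the genes and 0.14 for all probe sets tested. A signal filter at the 60th percentile kept 22 of the 24 genes and 9099 of the 13648 probe sets. The part of signal strength in these shares was not tested. No fold change of the 24 exceeded 1.5-fold, where 0.564% of all probe sets did.

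**Figure D2:**
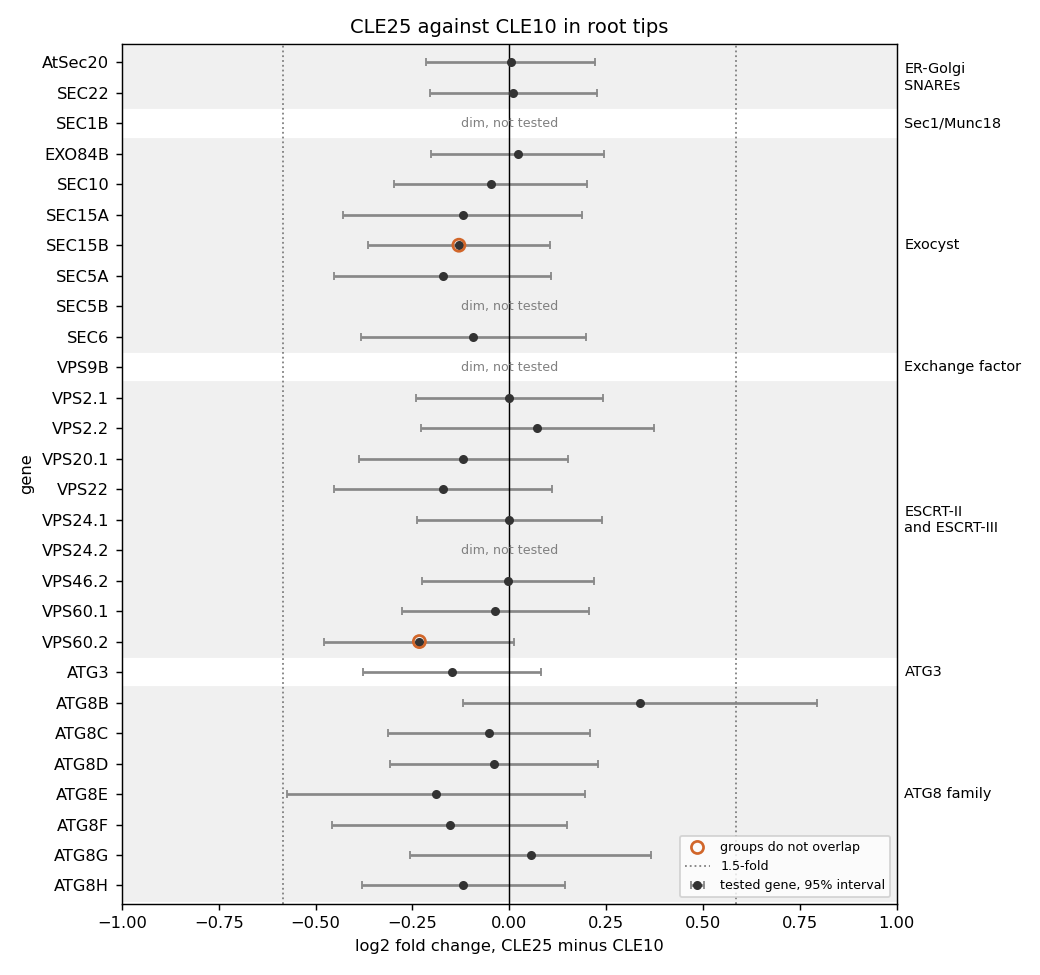
Log2 fold change of CLE25 minus CLE10 for the 24 genes tested, with 95% confidence intervals as bars and 1.5-fold either way as dotted lines. Every interval spans 0, the interval of ATG8B alone passes 1.5-fold, and orange rings mark VPS60.2 and SEC15B, whose groups do not overlap.

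Among vesicle fusion proteins of the early secretory pathway, both SNAREs had group means that were almost equal. SEC22, a SNARE of traffic between ER and Golgi, had signals of 2327, 2381 and 2381 with CLE10 and of 2400, 2162 and 2598 with CLE25. The CLE25 arrays lay on both sides of the CLE10 arrays. Its log2 fold change was 0.01 ± 0.10, and the interval excludes more than a 1.17-fold rise. AtSec20 (AT3G24315), named for the yeast SNARE of retrograde traffic to the ER, had 884, 826 and 893 with CLE10 and 864, 897 and 847 with CLE25. Its group means were 867.5 ± 36.2 (SD, n = 3) and 869.5 ± 25.5, giving a log2 fold change of 0.004 ± 0.10.

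SEC1B, of the Sec1/Munc18 family that governs SNARE pairing, was dim. Its signals were 64.4, 63.2 and 105 with CLE10 and 86.7, 88.6 and 113 with CLE25. The groups overlapped through the third CLE10 array, and the gene was left out of the test because its mean over all arrays fell just under the limit.

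The exocyst was measured through 7 genes, of which 6 were tested. The fold change was above 0 for 1 of the 6 and below 0 for 5, none of which passed the test, and the median log2 fold change was -0.11. SEC5A, SEC6, SEC10, SEC15A, SEC15B and EXO84B each encode a subunit of the complex, and SEC5B is a second copy of SEC5.

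SEC15B had signals of 701, 706 and 725 with CLE10 and of 699, 653 and 598 with CLE25. All 3 CLE25 arrays lay below the CLE10 arrays, the nearest by about 2 signal units. The group means were 710.7 ± 12.7 (SD, n = 3) and 650.1 ± 50.5, giving a log2 fold change of -0.13 ± 0.11 (adjusted p = 0.9995 in limma). With quantile normalization between arrays the SEC15B groups overlapped. SEC15A, its paralogue, had 269, 254 and 238 with CLE10 and 264, 216 and 220 with CLE25. The highest CLE25 array lay above 2 of the CLE10 arrays, and the log2 fold change was -0.12 ± 0.14.

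SEC5A had signals of 746, 935 and 739 with CLE10 and of 686, 795 and 658 with CLE25. The second array of each group was its highest, and the groups overlapped there. Its log2 fold change was -0.17 ± 0.13, with values from -0.25 (without CLE25 replicate 2) to -0.06 (without CLE10 replicate 2) on leaving out an array. SEC5B was dim, with 37.8, 55.4 and 31.3 with CLE10 and 89.7, 42.9 and 38.8 with CLE25, so its higher CLE25 mean rests on the first CLE25 array.

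SEC6 had 746, 787 and 736 with CLE10 and 798, 772 and 578 with CLE25. The third CLE25 array was the low one, and without it the log2 fold change turned from -0.09 ± 0.13 to 0.05. Without CLE25 replicate 1 it was -0.18. SEC10 had 654, 751 and 621 with CLE10 and 637, 684 and 632 with CLE25, giving a log2 fold change of -0.05 ± 0.11. The SEC10 locus of Col-0 is known to hold near-identical tandem copies, which this probe set may not tell apart. EXO84B, a subunit that plants need for normal secretion and growth, had 708, 745 and 697 with CLE10 and 756, 711 and 715 with CLE25. It varied little, by 1.08-fold over all 6 arrays, and its log2 fold change was 0.02 ± 0.10.

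The endosomal sorting genes comprised 9 ESCRT genes, and 8 were tested. The fold change was above 0 for 2 of them and below 0 for 6, with a median of -0.02, and none passed the test. VPS22 belongs to ESCRT-II, which prepares the endosomal membrane for the filament-forming ESCRT-III. VPS2.1, VPS2.2, VPS20.1, VPS24.1 and VPS24.2 are forms of ESCRT-III core subunits. VPS46.2, VPS60.1 and VPS60.2 are ESCRT-III-related proteins.

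VPS60.2 (AT5G04850) had the smallest p of all 24 genes. Its signals were 518, 498 and 504 with CLE10 and 402, 438 and 454 with CLE25. The groups did not overlap, and the CLE25 array nearest to the CLE10 arrays was the third. The means were 506.9 ± 10.2 (SD, n = 3) and 431.2 ± 26.5, giving a log2 fold change of -0.23 ± 0.11 (limma unadjusted p = 0.0612, adjusted p = 0.9995). Its 95% interval, as a ratio of CLE25 to CLE10, ran from 0.718 to 1.01. With no filter on dim probe sets its limma unadjusted p was 0.0465, and the adjusted p was 0.99998. VPS60.1, its paralogue, had 992, 1050 and 871 with CLE10 and 948, 1003 and 886 with CLE25. These groups overlapped fully, at a log2 fold change of -0.04 ± 0.11. Whether both copies differ from each other in their fold change was not tested.

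VPS60.2 and SEC15B were the 2 genes of the 24 whose groups did not overlap, both lower with CLE25, which is 8.33%. Among all probe sets tested, 9.18% had groups that did not overlap, and 4.51% had separate groups with CLE25 lower. The share among these genes is near that of the array as a whole. Fewer arrays separate more easily, and the count was 7 (29.2%) without CLE10 replicate 2, where 19.9% of all probe sets separated, and 5 (20.8%) without CLE10 replicate 1, where 15.6% did. It was 4 (16.7%) without CLE25 replicate 1 or replicate 2, against 18.7% and 22.8% of all probe sets. It was 3 (12.5%) without CLE10 replicate 3 or CLE25 replicate 3, against 19.4% and 17.5%. Besides VPS60.2 and SEC15B, the genes were ATG8G, ATG3 and VPS22 without CLE10 replicate 1, and ATG8B and SEC15A without CLE25 replicate 1. Without CLE10 replicate 2 they were ATG8D, ATG8F, ATG8H, VPS20.1 and EXO84B, and without CLE25 replicate 2 SEC22 and SEC5A. ATG8B separated without CLE10 replicate 3, and ATG3 without CLE25 replicate 3. ATG8B, ATG8G, EXO84B and SEC22 were then higher with CLE25, and the others lower.

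VPS22 had signals of 928, 1148 and 1113 with CLE10 and of 805, 1002 and 1029 with CLE25. Only the first CLE10 array lay among the CLE25 arrays, and the log2 fold change was -0.17 ± 0.13. It was -0.27 without CLE10 replicate 1, where the groups separated, and -0.06 without CLE25 replicate 1. VPS20.1 had 702, 589 and 726 with CLE10 and 565, 610 and 677 with CLE25, giving a log2 fold change of -0.12 ± 0.12. Here the second CLE10 array lay within the CLE25 range. The value was -0.21 without that array, where the groups separated, and -0.06 without CLE25 replicate 1.

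The remaining ESCRT-III genes differed by less. VPS2.1 had 1724, 1591 and 1843 with CLE10 and 1764, 1521 and 1884 with CLE25, so the CLE25 arrays spanned the CLE10 arrays. Its log2 fold change was 0.0003 ± 0.11. VPS2.2 had 586, 599 and 565 with CLE10 and 754, 584 and 524 with CLE25, giving a log2 fold change of 0.07 ± 0.14. Its first CLE25 array was far above the others, and without it the value was -0.07. Without CLE25 replicate 3 it was 0.18.

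VPS24.1 had 1217, 1150 and 1234 with CLE10 and 1348, 1081 and 1183 with CLE25, giving a log2 fold change of -0.0004 ± 0.11. VPS24.2 was dim on every array, with signals from 2.04 to 23.5 with CLE10 and from 4.88 to 17.8 with CLE25. Of the VPS24 pair, VPS24.1 alone could therefore be followed. VPS46.2 (CHMP1A), known in Arabidopsis for the vacuolar sorting of auxin carriers, had 901, 953 and 1001 with CLE10 and 978, 904 and 965 with CLE25. The log2 fold change came to -0.004 ± 0.10, and its 95% interval as a ratio ran from 0.856 to 1.16.

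VPS9B, a relative of the exchange factor VPS9A that activates RAB5 GTPases on endosomes, was dim. It had 68.3, 50.9 and 43.7 with CLE10 and 49.1, 79.8 and 78.4 with CLE25, and the groups overlapped. At the limit for dim probe sets, SEC1B and VPS9B were the nearest genes below, with mean signals of 86.9 and 61.7. ATG8B and SEC15A were the nearest above, with 140.8 and 243.4.

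Autophagy was represented by ATG3 and by 7 members of the ATG8 family, all of them tested. ATG3 is the E2-like enzyme that passes ATG8 to its membrane lipid. Its signals were 835, 862 and 908 with CLE10 and 748, 760 and 844 with CLE25. The third CLE25 array alone reached into the CLE10 range. The means were 868.3 ± 37.3 (SD, n = 3) and 783.7 ± 52.5, giving a log2 fold change of -0.15 ± 0.10 (limma unadjusted p = 0.183).

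The ATG8 genes encode the protein that marks the autophagic membrane and binds cargo receptors. Of the 7, 2 had a fold change above 0 and 5 below 0, none passed the test, and the median log2 fold change was -0.05. ATG8B to ATG8G are made with a tail that the protease ATG4 removes, while ATG8H ends in the exposed glycine from the start. ATG8H had 2095, 1747 and 2156 with CLE10 and 1846, 1623 and 2055 with CLE25, giving a log2 fold change of -0.12 ± 0.12. Its groups overlapped, as did those of the other ATG8 genes. The ATG8H value was -0.21 without CLE10 replicate 2, where the groups separated, and -0.03 without CLE25 replicate 2.

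ATG8B had the highest fold change of the 24 genes and the widest interval. Its signals were 123, 108 and 136 with CLE10 and 128, 209 and 140 with CLE25. The second CLE25 array stood above the other arrays, 1.94-fold over the lowest. The means were 122.4 ± 14.3 (SD, n = 3) and 159.1 ± 44.0, giving a log2 fold change of 0.34 ± 0.21 (adjusted p = 0.9995 in limma). Its 95% interval as a ratio ran from 0.920 to 1.73, and without CLE25 replicate 2 the log2 fold change was 0.13. It was 0.47 without CLE25 replicate 1 and 0.41 without CLE10 replicate 3, where the groups separated in both cases.

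ATG8E and ATG8F had their lowest signal on the same CLE25 array, the third. ATG8E had 1025, 865 and 1132 with CLE10 and 1111, 928 and 652 with CLE25. The log2 fold change came to -0.19 ± 0.18, with 0.02 without CLE25 replicate 3 and -0.36 without CLE25 replicate 1. ATG8F had 2365, 1856 and 2524 with CLE10 and 2345, 1954 and 1754 with CLE25. The log2 fold change came to -0.15 ± 0.14, with -0.06 without CLE25 replicate 3. It was -0.29 without CLE10 replicate 2, where the groups separated, and -0.27 without CLE25 replicate 1.

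The other 3 ATG8 genes had values close to 0. ATG8C had 921, 838 and 735 with CLE10 and 876, 783 and 743 with CLE25, giving a log2 fold change of -0.05 ± 0.12. ATG8D had 577, 483 and 623 with CLE10 and 565, 524 and 541 with CLE25, giving a log2 fold change of -0.04 ± 0.12. ATG8G had 479, 388 and 336 with CLE10 and 416, 430 and 393 with CLE25, giving a log2 fold change of 0.05 ± 0.14. In ATG8D and ATG8G all CLE25 arrays lay within the CLE10 range.

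Over the 24 genes the fold change was above 0 for 7 and below 0 for 17. The share above 0 was 29.2%, against 49.4% of all probe sets tested. The median log2 fold change was -0.05 for the genes and -0.002 for all probe sets. The median size of the log2 fold change, without its sign, was 0.08 for the genes and 0.10 for all probe sets. These are descriptions of lists whose genes share the same 6 arrays, and no test was made over the list.

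**Figure D3:**
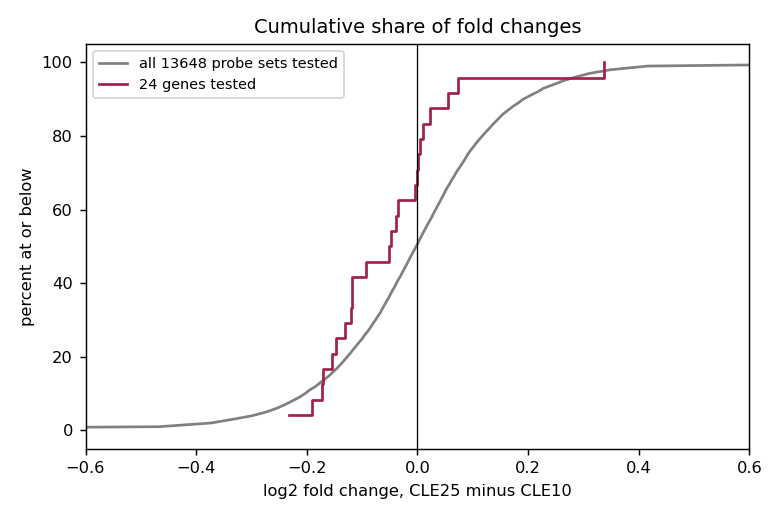
Cumulative share (percent) of the log2 fold change of CLE25 minus CLE10 for the 24 genes (red steps) and for all 13648 probe sets tested (grey line), drawn from -0.6 to 0.6. The red steps end at 0.34 and cross the middle at -0.05, where the grey line does so at -0.002.

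The spread between arrays is given within each peptide and over both. The residual SD on the log2 scale had a median of 0.14 over the 24 genes and of 0.16 over all probe sets tested. Over both peptides, the ratio of the highest to the lowest of the 6 arrays ran from 1.08 for EXO84B to 1.94 for ATG8B, with a median of 1.27. Within one peptide this ratio was 1.26 (CLE10) and 1.64 (CLE25) for ATG8B, and 1.07 and 1.06 for EXO84B. For 9 of the 24 genes the SD was under 10% of the mean in both groups.

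By counts of genes, the exocyst and ATG8 genes were most often high and low on different CLE10 arrays and on the same CLE25 arrays. This pattern was described after the values were seen. On CLE10 replicate 2, 5 of 7 ATG8 genes had the lowest signal of the CLE10 arrays, against 32.7% of all probe sets tested. On the same array 4 of 6 exocyst genes had the highest signal, against 37.0%. On CLE10 replicate 3 the reverse held, with 5 of 7 ATG8 genes highest, against 30.7% of all probe sets, and 5 of 6 exocyst genes lowest, against 34.9%. The median log2 deviation of the exocyst genes from their own means was 0.09 on CLE10 replicate 2 and -0.03 on CLE10 replicate 3. That of the ATG8 genes was -0.13 on CLE10 replicate 2 and 0.17 on CLE10 replicate 3. On CLE25 replicate 1, 4 of 6 exocyst genes and 4 of 7 ATG8 genes had the highest signal of their group, against 31.9% of all probe sets. On CLE25 replicate 3, 4 of 6 exocyst genes and 4 of 7 ATG8 genes had the lowest, against 39.8%, and the exocyst median there was -0.16. The ATG8 median was -0.042 there and -0.055 on CLE25 replicate 2, so by medians the ATG8 genes were lowest on replicate 2. Of the 8 tested ESCRT genes, 4 had the lowest signal of the CLE10 arrays on replicate 2, against 32.7% of all probe sets. On that array 3 had the highest, against 37.0%. On CLE10 replicate 3 and on CLE25 replicate 3, 4 of 8 ESCRT genes had the highest signal of their group. Of all probe sets tested, 30.7% and 29.7% did.

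**Figure D4:**
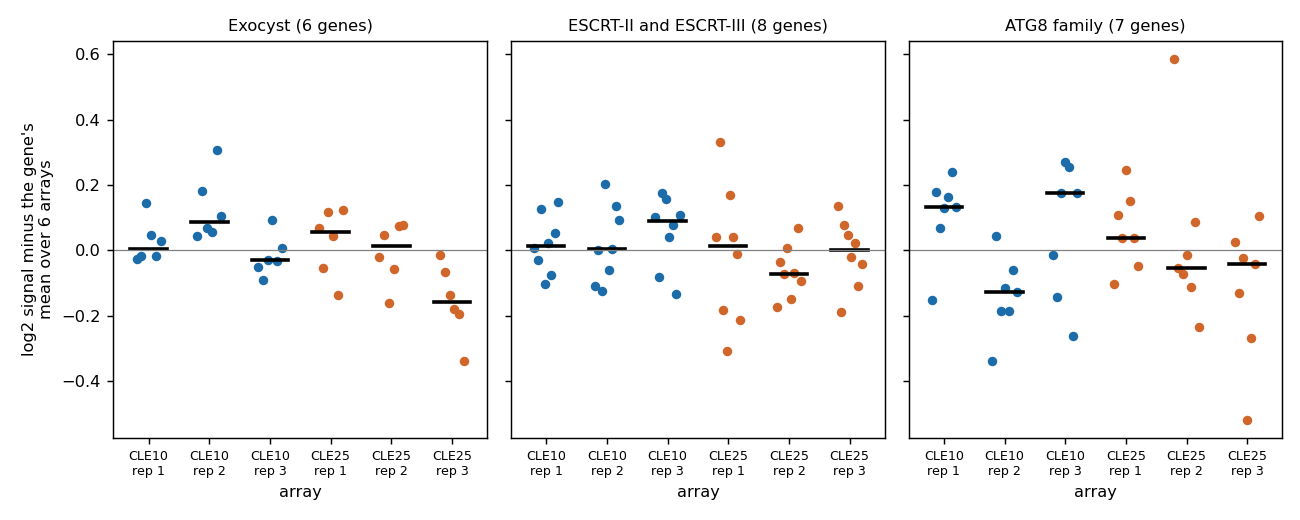
Log2 signal minus the gene's own mean over the 6 arrays for the tested exocyst (6), ESCRT (8) and ATG8 (7) genes, with 1 point per gene and array, CLE10 in blue, CLE25 in orange, and the median of each array as a black bar. The ATG8 median moves from -0.13 to 0.17 between CLE10 replicates 2 and 3, and the exocyst median is lowest, at -0.16, on CLE25 replicate 3.

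Other genes of membrane traffic and autophagy control were followed through a list of symbols beside these families, of which 8 were named on the array. None of the 7 tested passed an adjusted p of 0.05 in limma, where 0% of all probe sets tested did. At an unadjusted p under 0.05 the count was 0 of 7, against 4.21% of all probe sets. The fold change was above 0 for 2 (CHC1 and RAPTOR1) and below 0 for 5, with a median of -0.06. The share above 0 was 28.6%, against 49.4% of all probe sets tested. These figures include CHC1, which as described below is not the clathrin gene meant by the list. TPLATE, an adaptor of endocytosis at the plasma membrane, had 982, 1111 and 988 with CLE10 and 909, 960 and 829 with CLE25. Its CLE25 arrays all lay below the CLE10 arrays, and the log2 fold change was -0.19 ± 0.11. It was the 1 of the 7 (14.3%) with separate groups. Among all probe sets tested 9.18% had separate groups, and 4.51% had them with CLE25 lower.

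KEU, the Sec1/Munc18 protein of cell plate fusion, had a log2 fold change of -0.13 ± 0.15. MAG2, a tethering factor of traffic between Golgi and ER, had -0.12 ± 0.13. ARA6, a plant-specific RAB5 GTPase of endosomes, had -0.06 ± 0.11, and ELC, an ESCRT-I subunit, had -0.05 ± 0.11. RAPTOR1, the partner of the TOR kinase that restrains autophagy, had 0.006 ± 0.15. CHC1 had 0.12 ± 0.12, but the gene with this symbol here (AT5G14170) is known as a chromatin-remodelling subunit and not as the clathrin heavy chain meant by the list. ATSYP24, named as a syntaxin, was dim at 16.2 to 36.8 with CLE10 and 38.3 to 47.6 with CLE25. Its groups did not overlap, with CLE25 higher, but it lay under the limit for dim probe sets and was not tested.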

How the data were processed

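Each deposited value is an intensity, the linear signal of a probe set on an array. The submitters' processing notes name GCOS 1.4, with settings not given in the sources used here. Equal trimmed means (2% at each end) show a global scaling, so a shift shared by all transcripts would not be seen. Detection calls were not analysed here. Names came from the platform's annotation, and current symbols from the TAIR10.1 gene table through gene identifiers. All 28 genes matched under both. Probe sets with several gene names (503) or none could not enter.

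From these values, log2(signal + 6.03) was computed, the pseudocount being the 10th percentile. Control probe sets (64) and probe sets with a mean log2 signal under the 40th percentile (6.62) were left out, which kept 13648. The peptides were compared in limma 3.58.1 under R 4.3.3 (lmFit, then eBayes with a variance trend, two-sided), with no replicate block and Benjamini-Hochberg adjustment over all probe sets kept. The code was tested on simulated data. The labels do not say that arrays came from separate cultures, so the p-values rest on a spread between arrays that may be technical, and the number of arrays limits the precision.

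The genes and lists were chosen with earlier results of these data known. The genes named by rule were the 6 of smallest p in each direction, the 5 brightest, the brightest of each role, the dim ones and those nearest the limit for dim probe sets. The others are given so that each gene is accounted for. The root tissue and green tissue markers, 9 named on the array, are given by their values. In limma 0 of them passed, and 0% of all probe sets tested did. None was named for xylem.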

Additional observations from a re-analysis of the deposited data

How the results depend on the processing

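None of the 24 genes passed an adjusted p of 0.05 under any of the 14 alternatives, and the limma adjusted p over these was at least 0.788. The median over the genes, -0.050 here, stayed below 0, from -0.071 to -0.032 on leaving out an array and from -0.050 to -0.038 otherwise. The count of genes whose groups do not overlap, 2 here (8.33%, against 9.18% of all probe sets), was 1 with quantile normalization (VPS60.2). That is 4.17%, against 9.47% of all probe sets. On leaving out an array the count was 3 to 7 (12.5% to 29.2%), where fewer arrays make separation easier. Of all probe sets, 15.6% to 22.8% then separated. The count at an unadjusted p under 0.05, 0 here, became 1 once dim probe sets were kept in (VPS60.2). Over all probe sets that count, 575 of 13648 here, was 980 of 22746 with no filter and 362 of 9099 with the filter at the 60th percentile. Of the 13648 it was 814 with a replicate block, 358 without CLE10 replicate 1 and 889 without CLE25 replicate 2. Of 334 recomputed values of single genes, 306 kept their direction and 28 turned, in 14 genes. With quantile normalization VPS24.1 turned to 0.013 and VPS46.2 to 0.0085. With array weights SEC22 turned to -0.0031 and VPS2.1 to -0.027. The other turns came on leaving out an array, where the values ran from -0.137 to 0.024 for ATG8C, -0.142 to 0.039 for ATG8D, -0.361 to 0.021 for ATG8E, -0.063 to 0.189 for ATG8G, -0.031 to 0.025 for AtSec20, -0.0062 to 0.050 for EXO84B, -0.106 to 0.030 for SEC10, -0.053 to 0.080 for SEC22, -0.177 to 0.053 for SEC6, -0.067 to 0.087 for VPS2.1, -0.075 to 0.185 for VPS2.2, -0.084 to 0.074 for VPS24.1, -0.042 to 0.033 for VPS46.2 and -0.112 to 0.022 for VPS60.1. The genes that kept their direction ran from -0.202 to -0.115 for ATG3, 0.129 to 0.473 for ATG8B, -0.286 to -0.058 for ATG8F, -0.213 to -0.032 for ATG8H, -0.209 to -0.071 for SEC15A, -0.184 to -0.072 for SEC15B, -0.252 to -0.062 for SEC5A, -0.211 to -0.057 for VPS20.1, -0.266 to -0.060 for VPS22 and -0.269 to -0.183 for VPS60.2. The causes were not tested.

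Across probe sets, same-numbered arrays of both groups had deviations from their group means that correlated at 0.076, 0.136 and 0.221. Every array was most like the one of its own number, which is a hint from the data and not from the labels. With a replicate block limma called 1 probe set, none of it among these genes, where VPS60.2 had an adjusted p of 0.828. One planned comparison, the mean over several probe sets of a gene, was not run because each gene has 1, and neither was leaving out EXO1, which is not among the 28. Dim signals limit SEC1B, SEC5B, VPS9B and VPS24.2.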
